A study of Homo sapiens with 15 samples.

Results

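Broad accessible regions are stretches of at least 2000 bp in which open chromatin was called without a gap once the peak lists of 15 ATAC-seq libraries had been merged. ATAC-seq maps open chromatin with a transposase that inserts sequencing adapters into accessible DNA. Peaks on chromosomes 1 to 22 and X were joined wherever they overlapped by 1 bp or more, which gave 222814 regions whose widths had their median at 395 bp. Among them, 1020 (0.458%) were at least 2000 bp wide and are described here. The regions were chosen by their measured width over the merged lists of all groups, so their widths are given without a test.

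The cells were HPAF-II, a human pancreatic adenocarcinoma line. They received 1 µM Lgk974 for 24 h (4 libraries) or the solvent DMSO for 24 h (4 libraries), and 1 µM Lgk974 for 48 h (3 libraries) or DMSO for 48 h (4 libraries). Lgk974 inhibits porcupine, the enzyme that attaches a lipid to WNT proteins so that they can be secreted. The study asked how chromatin changes when WNT signalling is blocked. The labels do not say that the libraries of a group came from separate cultures, so the p-values measure the spread between these libraries, which may be technical. All groups are of 1 cell line, so nothing here extends beyond HPAF-II.

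At an active promoter the nucleosomes around the transcription start are displaced, and promoters in CpG islands, which are rich in G, C and the dinucleotide CG, are open in most cell types. A region becomes broad where several open stretches touch each other, as at a promoter with an open first exon, a pair of promoters facing away from each other, or an enhancer next to a promoter. WNT signalling acts on chromatin through beta-catenin and the TCF and LEF factors, which raise the transcription of target genes such as SP5 and ZNRF3.

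The reference promoters of 5 genes whose starts lay in broad regions are shown, because the results below return to these regions. Each window runs from 250 bases before to 50 after a RefSeq start on GRCh38.p14 and is written 5′ to 3′ on the strand of the gene. Capitals mark matches, on either strand, to the motifs searched: GGGCGG (bound by the Sp and KLF family), CCAAT (NF-Y), TATAAA (the TATA box), TGANTCA (AP-1), CCGGAAG (ETS factors), CTTTGAT (TCF and LEF factors) and the NRF1 palindrome. None of the matches shown overlap each other.
SP5, chr2:170715087-170715386, plus strand: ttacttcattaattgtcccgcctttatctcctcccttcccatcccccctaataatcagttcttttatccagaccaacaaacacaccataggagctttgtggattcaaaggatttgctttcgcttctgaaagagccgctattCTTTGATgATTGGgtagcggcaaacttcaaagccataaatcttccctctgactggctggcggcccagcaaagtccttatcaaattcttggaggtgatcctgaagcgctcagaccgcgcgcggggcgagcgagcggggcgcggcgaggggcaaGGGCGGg
CDC42EP2, chr11:65314616-65314915, plus strand: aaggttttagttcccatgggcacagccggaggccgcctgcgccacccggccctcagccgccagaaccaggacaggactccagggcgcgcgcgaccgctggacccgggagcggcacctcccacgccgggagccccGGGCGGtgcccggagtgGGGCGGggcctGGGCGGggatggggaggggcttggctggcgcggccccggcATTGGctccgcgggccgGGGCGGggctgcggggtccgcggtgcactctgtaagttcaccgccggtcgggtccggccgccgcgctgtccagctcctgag
CNKSR3, chr6:154510636-154510935, minus strand: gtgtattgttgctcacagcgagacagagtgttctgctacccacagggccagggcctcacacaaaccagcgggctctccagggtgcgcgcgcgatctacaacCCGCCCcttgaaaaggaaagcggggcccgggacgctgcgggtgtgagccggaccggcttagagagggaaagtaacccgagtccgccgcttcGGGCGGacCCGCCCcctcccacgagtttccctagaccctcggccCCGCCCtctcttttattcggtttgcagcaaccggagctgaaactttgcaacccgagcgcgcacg
GATA6, chr18:22169339-22169638, plus strand: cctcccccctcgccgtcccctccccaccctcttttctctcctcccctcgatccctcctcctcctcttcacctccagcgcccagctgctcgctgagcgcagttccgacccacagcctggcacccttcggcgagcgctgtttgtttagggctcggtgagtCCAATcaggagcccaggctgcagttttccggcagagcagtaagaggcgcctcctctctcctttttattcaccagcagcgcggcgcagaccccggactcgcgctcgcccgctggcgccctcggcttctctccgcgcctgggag
KRT8, chr12:52926420-52926719, minus strand: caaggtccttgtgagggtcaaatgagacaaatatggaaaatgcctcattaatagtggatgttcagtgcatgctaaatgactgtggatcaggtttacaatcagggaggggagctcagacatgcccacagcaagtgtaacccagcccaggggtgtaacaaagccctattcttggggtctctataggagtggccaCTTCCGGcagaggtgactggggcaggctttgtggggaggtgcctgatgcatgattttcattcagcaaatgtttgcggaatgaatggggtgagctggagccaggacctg
The windows of CDC42EP2 and CNKSR3 held 4 matches each to GGGCGG, with 36 and 28 CG dinucleotides. The SP5 window held 1 match to CTTTGAT next to 1 to CCAAT, 17 CG dinucleotides and 52.3% G and C. The KRT8 window, from a gene of a keratin of simple epithelia, held 2 CG dinucleotides and 1 match to CCGGAAG.

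Promoters in broad regions were richer in G, C and GGGCGG than reference promoters as a whole, given here as a description without a test. The RefSeq start of 1073 reference windows (793 genes) lay in a broad region. Their median G and C content was 70% and their median number of CG dinucleotides was 31, against 62.3% and 21 in all 22011 windows. GGGCGG was present in 79.5% of the windows in broad regions, against 56.3% of all windows. TATAAA was present in 3.91% against 9.49%, TGANTCA in 4.01% against 6.16%, CTTTGAT in 0.932% against 2.00%, CCGGAAG in 14.9% against 12.7% and CCAAT in 31.6% against 34.7%. In windows whose RefSeq start lay in no region, GGGCGG was present in 30.0% and TATAAA in 17.01%. Windows in regions of 1500 bp to under 2000 bp were close to those in broad regions, at 67.7% G and C, 29 CG dinucleotides and 77.2% with GGGCGG. Windows of all regions under 2000 bp that were called in all 15 libraries held 65.3% G and C, 26 CG dinucleotides and GGGCGG in 72.2%. CCGGAAG and CCAAT were more frequent in these (21.7% and 38.8%) than in broad regions. These are matches of letters and not sites of binding.

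Some broad regions also held small RNA genes. Of 1558 microRNA hairpins in the reference, 208 lay in any region and 19 in a broad one, together with 16 tRNA, 3 snoRNA and 7 snRNA genes. Mature sequences of 3 well-known microRNAs among them follow, with the seed (bases 2 to 8), which pairs with target mRNAs, in capitals.
hsa-miR-203a-3p, chr14:104117469-104117490, plus strand: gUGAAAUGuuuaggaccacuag
hsa-miR-191-5p, chr3:49020672-49020694, minus strand: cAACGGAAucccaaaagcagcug
hsa-miR-378a-3p, chr5:149732867-149732888, plus strand: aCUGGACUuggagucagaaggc
They share no seed. MIR203A, whose product restrains proliferation in epithelia, lay in a region of 2076 bp at an end of ASPG, which was picked out after its values were seen. That region was covered over 1385, 1219, 1030 and 1564 bp with Lgk974 at 24 h, against 981, 1691, 1537 and 1203 bp with DMSO at 24 h. After 48 h it was covered over 1603, 2021 and 977 bp with Lgk974, against 1588, 976, 1198 and 1717 bp with DMSO. The groups overlapped at both times.

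Before the groups are compared, 3 libraries that stood apart need naming. The lists of Lgk974 24 h replicate 3 and Lgk974 48 h replicate 3 were the shortest, with 53583 and 57649 peaks on the chromosomes used, against 76679 to 127755 in the other 13. The list of DMSO 24 h replicate 3 was the longest and its peaks the narrowest, with a median width of 327 bp against 383 to 463 bp in the other 14. The number of reads per library is unknown here, so a base outside a peak may be open below the calling threshold. Starts, or ends where the reference gives no start, were called in all 15 libraries for 11 of 12 pancreatic ductal markers. They were so called for 2 of 7 markers of lymphoid and myeloid cells, 1 of 7 of fibroblasts, 1 of 4 of neurons and 0 of 4 of hepatocytes.

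The broad regions ran from 2000 to 3645 bp, with a median of 2191 bp and quartiles at 2071 and 2373 bp. Together they spanned 2.31 Mb, 157 were at least 2500 bp wide and 16 at least 3000 bp. The widest lay at THBD, which encodes thrombomodulin, a cell-surface protein that holds back clotting (chr20:23047699-23051343, 3645 bp). Next came the start of ITPK1, an inositol phosphate kinase gene (3575 bp). A region within 1 kb of an end of FOXL1, a forkhead factor gene without a start entry, followed (3440 bp). Then came the start of HIVEP2, a zinc finger factor gene (3423 bp). Among the other wide regions at starts were those of TRIM47, a gene of the tripartite motif family (3310 bp), CABLES1 (3236 bp) and FOXO1, the forkhead factor restrained by insulin signalling (3105 bp). Of the 10 widest, 2 lay between genes, 5088 bp from TNFRSF14 (3185 bp) and 8184 bp from LBHD2 (3132 bp).

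Just inside the threshold were the start of ATXN7L1 (2000 bp) and regions nearest to PTMA and FAM90A1 (2001 bp each). Just outside it, at 1999 bp each, were regions at GMEB1, NUAK1 and LETM1, all called in 15 libraries. A further 3886 regions were 1500 bp to under 2000 bp wide.

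For about as many broad regions as not, the breadth came only from merging peaks. A single peak of at least 2000 bp in some library was present in 503 broad regions and in 517 it was not; the widest peak of any list was 3102 bp. Of the sequence in broad regions, 32.7% was under peaks in all 15 libraries, 73.2% in at least 8 and 5.61% in 1 library only. The median broad region had 731 bp under peaks in all 15 libraries. Had bases been required to lie under peaks of at least 2 libraries, 552 regions would have passed 2000 bp, with at least 8 libraries 85, and with all 15 none (0). KRT8, the keratin of simple epithelia, had the most shared breadth among the genes named here, with 2225 of its 2961 bp open in every list.

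Broad regions were called nearly everywhere. Of the 1020, 964 (94.5%) had a peak in all 15 libraries, 37 in 14, 14 in 12 or 13 and 5 in fewer than 12. Among the 3886 regions of 1500 bp to under 2000 bp the share called in all 15 was 90.1%, and among all regions 15.9%. Their peaks did not stand out in strength. The best peak of a broad region lay at a median percentile of 79.7 of its own list by the authors' −log10 p, and that of other regions called in all libraries at 79.9. In the median library a broad region held at most 1 peak in 370 regions, 2 in 591 and 3 or more in 59.

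Among the 5 regions called in fewer than 12 libraries were those near FXR1 and at GUCY1A2 and TMEM132C. The region nearest to FXR1, 82507 bp from that gene, had peaks in 3 libraries only: 598 bp in Lgk974 24 h replicate 4, 802 bp in Lgk974 48 h replicate 2 and 2026 bp, its whole width, in DMSO 24 h replicate 3. The start of GUCY1A2, a subunit of the nitric oxide receptor, had peaks in 5 libraries and that of TMEM132C, a transmembrane protein gene, in 9. In both, DMSO 24 h replicate 3 held the widest coverage, at 1232 bp and 1143 bp.

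Most broad regions sat on gene starts. Of the 1020, 682 (66.9%) held the start of a protein-coding gene. A further 135 (13.2%) lay within 1 kb of either end of a protein-coding gene for which the reference gives no oriented start. Both classes together made up 80.1% of broad regions, against 69.6% of regions of 1500 bp to under 2000 bp, 26.5% of regions under 2000 bp called in all libraries and 6.98% of all regions. Another 33 held the start of a long noncoding RNA gene only, 90 lay elsewhere in protein-coding genes and 80 outside them. Among the 682, 112 held the starts of at least 2 protein-coding genes, up to 4. Starts on both strands, noncoding genes included, were present in 265 of the 682 (38.9%), against 33.0% of regions of 1500 bp to under 2000 bp with a start and 26.4% of other regions called in all libraries.

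**Figure D1:**
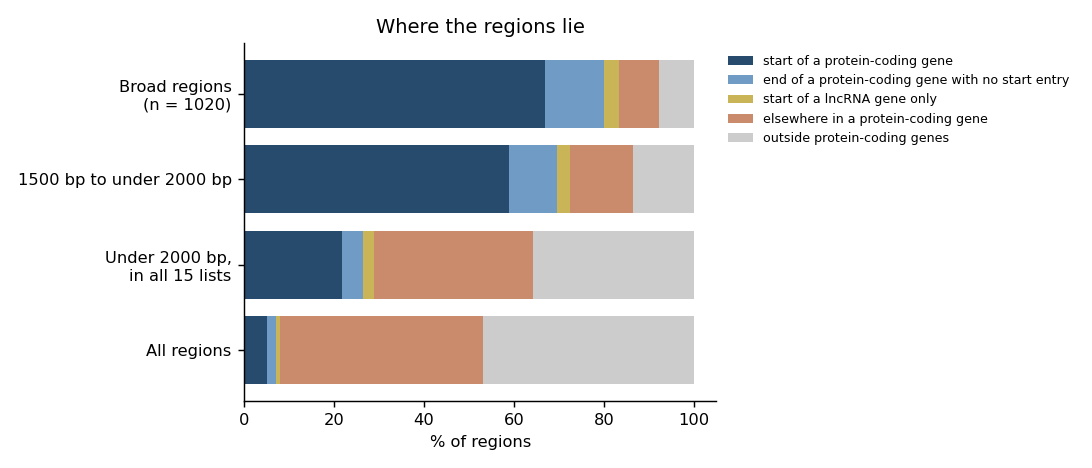
Percent of regions (horizontal axis) by what the RefSeq annotation places in them, for the 1020 broad regions, regions of 1500 bp to under 2000 bp, regions under 2000 bp called in all 15 libraries, and all 222814 regions (rows). The dark blue segment, regions that hold the start of a protein-coding gene, is 66.9% in the top row and 5.02% in the bottom row.

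Regions on gene starts reached farther into the gene than away from it. In the 371 broad regions that held the start of 1 gene only, the region ended a median of 847 bp upstream of the start and 1404 bp downstream of it. Where that gene had several start entries in the region, the most upstream one was used, which lengthens the downstream side. The downstream side was the longer in 265 of these (71.4%), and in 66.1% of the 283 whose gene has 1 start entry. In those 283 the medians were 905 bp upstream and 1344 bp downstream. In regions of 1500 bp to under 2000 bp the downstream side was the longer in 69.4%. In the bin centred at -50 bp, just upstream of the start, 84.1% to 97.1% of bases were under a peak, except in replicate 3 of Lgk974 at 24 h (69.8%) and at 48 h (71.8%). Lgk974 48 h replicate 2 differed in shape, with 86.9% at +350 bp, where the other 14 libraries ran from 28.4% to 74.1%.

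**Figure D2:**
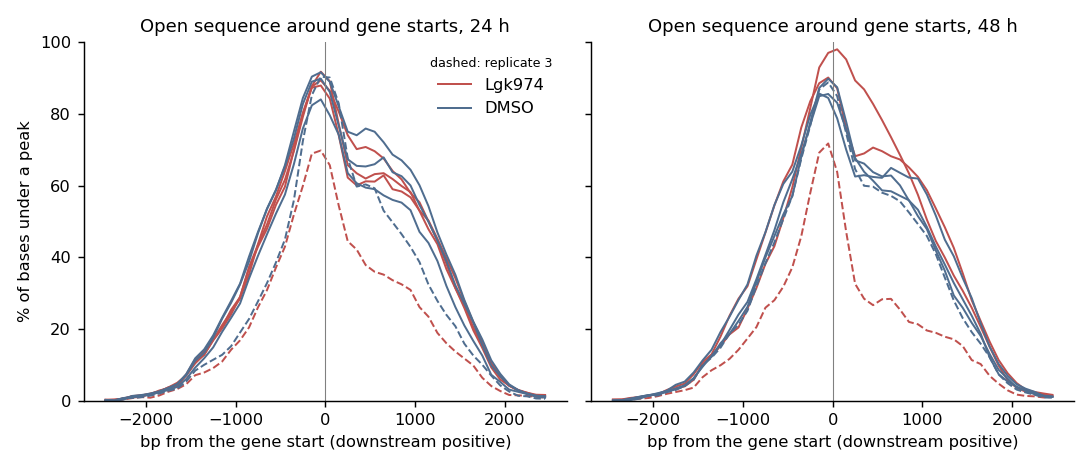
Percent of bases under a peak (vertical axis) by distance from the gene start in bp, downstream positive (horizontal axis), in bins of 100 bp over the 371 broad regions with the start of 1 gene (its most upstream start entry in the region), with 1 line per library, Lgk974 in red and DMSO in blue, at 24 h (left) and 48 h (right). All but 1 line fall away beyond the start to a shoulder downstream; Lgk974 48 h replicate 2 stays at 86.9% at +350 bp, and the dashed lines of both Lgk974 replicates 3 lie lowest.

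The open length on each side of the start did not differ between treatments beyond the spread, a comparison added after the data were seen. It averaged 658 ± 113 bp upstream with Lgk974 and 684 ± 89.3 bp with DMSO at 24 h (SD, n = 4 each), and 640 ± 150 bp with Lgk974 (n = 3) and 692 ± 34.6 bp with DMSO (n = 4) at 48 h. Downstream it averaged 873 ± 215 bp with Lgk974 and 942 ± 120 bp with DMSO at 24 h, and 862 ± 352 bp and 915 ± 49.9 bp at 48 h. The difference over both times was -39.5 bp upstream (two-sided exact permutation p = 0.444) and -61.0 bp downstream (exact p = 0.572).

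Broad regions were spread over all chromosomes. Chromosome 17 had the largest share of its regions among the broad ones (67 of 7131, 0.940%) and chromosome 18 the smallest (9 of 4120, 0.218%). Of the 1020, 195 lay within 100000 bp of another, in 91 groups. DUSP6, which encodes a phosphatase that switches off ERK, had a broad region at each end of the gene, and both are described below.

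The summed covered length of the broad regions did not differ between treatments beyond the spread of the libraries. With Lgk974 at 24 h peaks covered 1732, 1753, 1102 and 1807 kb, against 1822, 1915, 1411 and 1627 kb with DMSO at 24 h. With Lgk974 at 48 h they covered 1872, 1823 and 1016 kb, against 1666, 1809, 1597 and 1659 kb with DMSO at 48 h. Replicate 3 of both Lgk974 groups was the lowest of its group by far, and the ranges overlapped at both times. The means were 1598 ± 333 kb with Lgk974 and 1694 ± 224 kb with DMSO at 24 h (SD, n = 4 each), and 1570 ± 481 kb (n = 3) and 1683 ± 89.9 kb (n = 4) at 48 h. The difference, Lgk974 minus DMSO, was -95.3 kb at 24 h (two-sided exact permutation p = 0.657), -113 kb at 48 h (exact p = 0.857) and -104 kb over both times (exact p = 0.514). The difference did not change with time beyond this spread (48 h minus 24 h, -17.3 kb, exact p = 0.956). From 24 h to 48 h it moved by -28.1 kb within Lgk974 (exact p = 0.886) and by -10.8 kb within DMSO (exact p = 0.914). When these 3 outlying lists were dropped, which was decided with the values in view, the sign turned, to 70.3 kb over both times (exact p = 0.267) and 165 kb at 48 h (exact p = 0.133). The smallest p that these designs allow is 0.0286 at either time and 0.000408 over both.

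**Figure D3:**
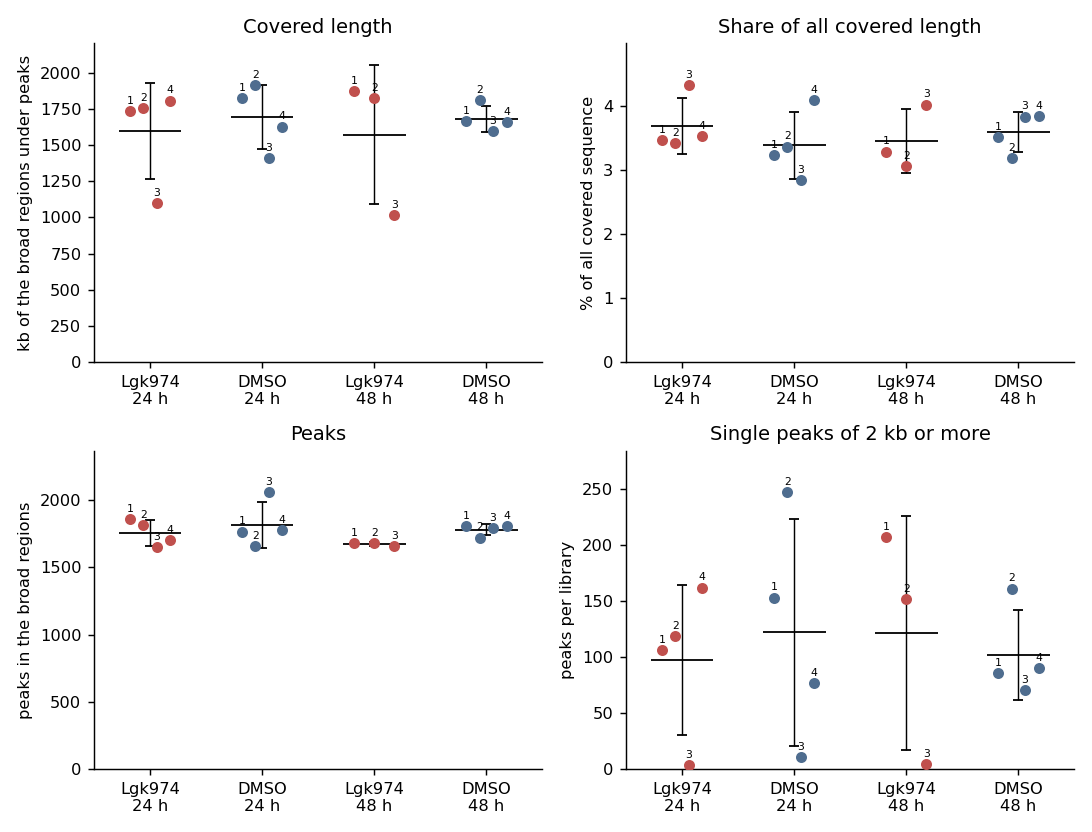
Values of each library (points, numbered by replicate) for the 1020 broad regions, with Lgk974 in red, DMSO in blue, group mean (line) and SD (bars): kb under peaks, percent of all covered sequence, number of peaks, and single peaks of at least 2 kb. Replicate 3 of both Lgk974 groups lies lowest in covered length, at 1102 and 1016 kb, and highest of its group in share, at 4.32% and 4.01%.

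Because list lengths differed, covered length was also set against all covered sequence of the same library. The broad regions took 3.47%, 3.41%, 4.32% and 3.52% of all covered sequence with Lgk974 at 24 h, against 3.23%, 3.36%, 2.84% and 4.09% with DMSO. At 48 h they took 3.28%, 3.06% and 4.01% with Lgk974, against 3.50%, 3.17%, 3.83% and 3.83% with DMSO. The 3 highest shares belonged to the 3 shortest lists and the lowest to the longest list. The difference was 0.301 percentage points at 24 h (exact permutation p = 0.343), -0.133 at 48 h (exact p = 0.686) and 0.0840 over both times (exact p = 0.709). With the 3 libraries that stood apart left out it was -0.254 over both times (exact p = 0.193), and with the same number of peaks from each list it was -0.0521 (exact p = 0.662).

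The number of peaks in broad regions did not pass the test between treatments. They numbered 1859, 1811, 1649 and 1701 with Lgk974 at 24 h, against 1764, 1657, 2056 and 1776 with DMSO. At 48 h they numbered 1680, 1678 and 1657 with Lgk974, against 1802, 1719, 1791 and 1804 with DMSO. At 48 h every Lgk974 library lay below every DMSO library, while at 24 h the groups overlapped. The difference was -58.2 peaks at 24 h (exact permutation p = 0.657), -107 at 48 h (exact p = 0.0571) and -82.8 over both times (exact p = 0.113). With only peaks of a deposited −log10 q of at least 5, the 48 h difference was -85.7 (exact p = 0.0286), and with the same number of peaks from each list it turned to 25.2 (exact p = 0.857). Over both times it was -109 (exact p = 0.0310) without DMSO 24 h replicate 2, -42.3 (exact p = 0.289) without DMSO 24 h replicate 3 and -21 (exact p = 0.600) without the 3 libraries that stood apart. After adjustment over 54 comparisons of this kind no value of any measure was below 0.992.

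The other measures of breadth were likewise within the spread. A broad region with a peak held a mean of 1.73 ± 0.0890 peaks with Lgk974 and 1.78 ± 0.166 with DMSO at 24 h (SD, n = 4 each), and 1.67 ± 0.0337 (n = 3) and 1.75 ± 0.0393 (n = 4) at 48 h; the difference over both times was -0.0658 (exact permutation p = 0.196). The median peak in a broad region was 783 ± 146 bp wide with Lgk974 and 819 ± 199 bp with DMSO at 24 h, and 834 ± 276 bp and 819 ± 73.7 bp at 48 h (difference over both times -10.3 bp, exact p = 0.911). Single peaks of at least 2000 bp ranged most widely. They numbered 106, 119, 4 and 162 with Lgk974 at 24 h, against 153, 247, 11 and 77 with DMSO, and 207, 152 and 5 with Lgk974 at 48 h, against 86, 161, 71 and 90 with DMSO (difference over both times -2.46, exact p = 0.951). The 3 libraries with the fewest were the 3 that stood apart.

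Merging the lists of 1 treatment alone gave like numbers of broad regions. The 7 Lgk974 lists gave 657 and the 8 DMSO lists 659. Of the 1020, 424 were broad in both of these merges, 233 in that of Lgk974 only, 235 in that of DMSO only and 128 in neither. By group, 3 lists at a time gave 217 to 316 with Lgk974 at 24 h, 282 to 434 with DMSO at 24 h, 444 with Lgk974 at 48 h and 227 to 340 with DMSO at 48 h.

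Region by region, the broad regions gave 1 that passed the test. Covered length was compared in each of 115844 regions with a peak in at least 3 libraries, all 1020 broad ones among them, with limma on log2(covered bp + 100) and Benjamini-Hochberg adjustment over all of them. Over both times 1 broad region was lower with Lgk974 and none (0) higher at an adjusted p under 0.05, against 0.0432% of all regions lower and 0.0233% higher. At the later time it was again 1 lower and 0 higher, against 0.0432% lower and 0.0492% higher, and at 24 h 0 of either kind in both sets. At 24 h an unadjusted limma p under 0.05 was reached by 4 broad regions lower (0.392%) and 3 higher (0.294%), against 2.05% and 1.25% of all regions. The change of the difference between 24 h and 48 h gave 0 calls in both sets, and at an unadjusted p under 0.05 2 broad regions in each direction (0.196%), against 0.483% of all regions lower and 1.45% higher. At an unadjusted limma p under 0.05 over both times, 21 broad regions (2.06%) were lower and 4 (0.392%) higher, against 4.05% and 3.24% of all regions. An exact permutation test per region called 0, with a smallest adjusted p of 0.196. The smallest p that this test allows is 0.000408, which 180 regions reached lower, 1 of them broad, and 61 higher. Adjusted over all 115844 regions, that smallest p is 0.196, so the test could not decide about a single region. The median log2 difference over both times was -0.116 in broad regions, of which 842 of 1020 were below 0, and -0.0610 in all regions tested, of which 59.4% were. The same 3 libraries enter all of these values.

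The region that passed lay inside GGCX, which encodes the carboxylase that uses vitamin K to activate clotting factors (chr2:85546005-85548105, 2101 bp). It lay 13388 bp from the start of GGCX, towards the end of the gene, and 724 bp past the end of MAT2A, which encodes the enzyme that makes S-adenosylmethionine. Peaks covered 263, 586, 0 and 460 bp of it with Lgk974 at 24 h, against 1853, 1580, 626 and 1470 bp with DMSO at 24 h. At 48 h they covered 0, 0 and 0 bp with Lgk974, against 691, 1790, 1343 and 1251 bp with DMSO. Every Lgk974 library lay below every DMSO library at both times. Among broad regions this was the case for 1 in this direction and 0 in the other, against 0.161% and 0.109% of all regions tested. The log2 difference was -2.86 ± 0.353 over both times (SE, limma adjusted p = 0.00382), -2.02 ± 0.480 at 24 h (adjusted p = 0.567) and -3.71 ± 0.518 at 48 h (adjusted p = 0.0429). The call at 48 h was lost when any 1 library was left out, except for replicate 3 of Lgk974 at 24 h and replicate 3 of DMSO at 24 h, while the call over both times held in all 15 of these fits. The number of libraries with a peak was 3 of 7 with Lgk974 and 8 of 8 with DMSO, so the log2 difference depends on the 100 bp added before taking logs. In bulk cells, fewer cells with an open region and less opening in each cell cannot be told apart. The Lgk974 lists alone joined at most 463 bp here and the DMSO lists the full 2101 bp, so the DMSO peaks brought this region past the width threshold. GGCX is higher in those lists, so its difference and lack of overlap are not independent of how the region was chosen. With the 3 outlying libraries left out the log2 difference was -2.72 (limma adjusted p = 0.000276), and with the 53583 strongest peaks of each list it was -1.95 (adjusted p = 0.237). Over its 24 alternatives the limma adjusted p ranged from 0.000276 to 0.244. In those shortened lists 0 of 7 Lgk974 libraries and 4 of 8 DMSO libraries had a peak there.

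**Figure D4:**
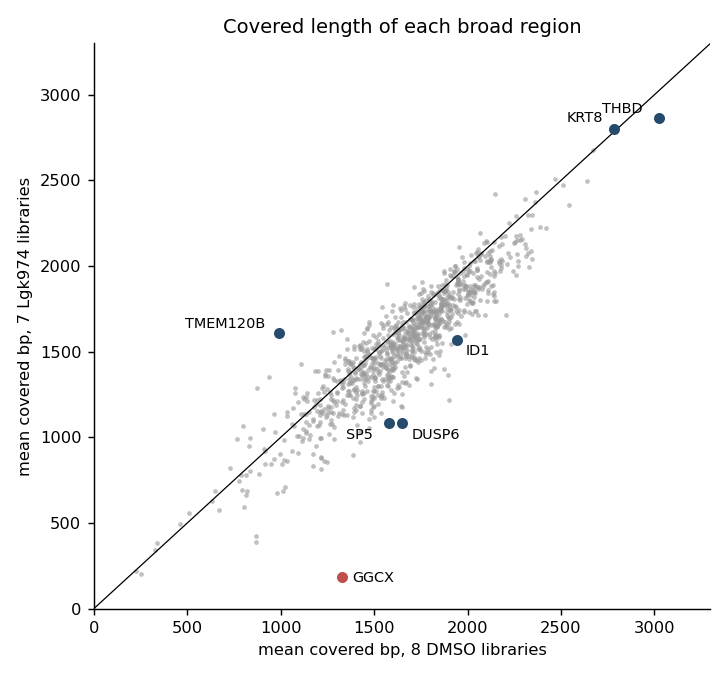
Mean covered bp of each of the 1020 broad regions in the 7 Lgk974 libraries (vertical axis) against the mean in the 8 DMSO libraries (horizontal axis), with the line of equality. Most points lie close to and somewhat below the line; GGCX (red) stands farthest below it and TMEM120B well above it.

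The next 4 regions in this direction, at DUSP6, ID1, CDC42EP2 and CARMIL1, did not pass the test. The Lgk974 lists alone joined at most 1396 bp at DUSP6, 975 bp at ID1, 1665 bp at CDC42EP2 and 1062 bp at CARMIL1, against 2059, 2149, 2334 and 2338 bp in the DMSO lists. All 4 thus passed the width threshold through the DMSO lists only, in which they are higher, so their differences are not independent of how the regions were chosen. A region over the end of DUSP6 (chr12:89345733-89347791, 2059 bp), 4710 bp from the start of the gene, was covered over 1616, 1300, 630 and 1332 bp with Lgk974 at 24 h, against 1994, 1855, 1089 and 1761 bp with DMSO. At 48 h it was covered over 1087, 852 and 784 bp with Lgk974, against 1352, 1933, 1423 and 1804 bp with DMSO. The groups overlapped at 24 h and did not at 48 h. The log2 difference over both times was -0.62 ± 0.172 (SE, limma adjusted p = 0.220), and -0.53 (adjusted p = 0.0209, range over 24 alternatives 0.0209 to 0.583) leaving out the 3 outlying libraries. The region at the start of DUSP6 (2661 bp) overlapped between treatments at both times, with 2107 ± 299 bp with Lgk974 and 2114 ± 306 bp with DMSO at 24 h (SD, n = 4 each), and 1991 ± 333 bp (n = 3) and 2128 ± 169 bp (n = 4) at 48 h.

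Downstream of ID1, an inhibitor of basic helix-loop-helix factors, 2151 bp beginning 300 bp past the gene had 1700, 1690, 1478 and 1750 bp with Lgk974 at 24 h, against 1933, 2006, 1329 and 2005 bp with DMSO. After 48 h it had 1668, 1399 and 1283 bp with Lgk974, against 2001, 2117, 2023 and 2130 bp with DMSO. Only the 48 h groups were apart. The log2 difference over both times was -0.30 ± 0.0952 (SE, limma adjusted p = 0.351), and -0.31 (adjusted p = 0.00460, range over 24 alternatives 0.00460 to 0.640) when the 3 outlying libraries were left out. This region holds MIR3193.

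The start of CDC42EP2, an effector of the small GTPase CDC42, was covered over 2113, 1485, 1080 and 1585 bp with Lgk974 at 24 h, against 2261, 2196, 1322 and 1615 bp with DMSO. At the later time it was covered over 1317, 1270 and 925 bp with Lgk974, against 1985, 2209, 1722 and 1670 bp with DMSO, and the groups did not overlap. The log2 difference over both times was -0.44 ± 0.143 (SE, limma adjusted p = 0.389), and -0.82 (adjusted p = 0.0478, range over 24 alternatives 0.0323 to 0.644) with the 53583 strongest peaks of each list. The region at CARMIL1, a gene for a regulator of actin capping, had a log2 difference of -0.55 ± 0.188 (limma adjusted p = 0.444). At 48 h 18 broad regions (1.76%) had every Lgk974 library below every DMSO library and 1 (0.0980%) the reverse, against 2.79% and 1.24% of all regions tested. At 24 h it was 4 (0.392%) and 0, against 0.876% and 0.392%.

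In the other direction the smallest p belonged to a region inside TMEM120B, a gene for a membrane protein linked to fat cell formation (chr12:121774729-121777112, 2384 bp). It was covered over 1494, 1726, 879 and 1866 bp with Lgk974 at 24 h, against 947, 1008, 1045 and 919 bp with DMSO. At 48 h it was covered over 2169, 2197 and 913 bp with Lgk974, against 968, 983, 844 and 1203 bp with DMSO. All Lgk974 libraries other than both replicates 3 lay above all DMSO libraries. The log2 difference over both times was 0.59 ± 0.178 (SE, limma adjusted p = 0.281), and 0.91 (adjusted p = 0.000665, range over 24 alternatives 0.000665 to 0.583) leaving out the 3 outlying libraries. Here the Lgk974 lists joined the full 2384 bp and the DMSO lists at most 1121 bp.

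Next in that direction came a region inside PWWP2B, a chromatin reader gene, with a log2 difference of 0.26 ± 0.0909 (SE, limma adjusted p = 0.444). It was covered over 1918, 2059 and 1875 bp with Lgk974 at 48 h, against 1414, 1860, 1278 and 1597 bp with DMSO, without overlap. The start shared by SEMA4C, a semaphorin gene, and LOC124908044 had a log2 difference of 0.53 ± 0.214 (adjusted p = 0.570). The start of TNFRSF14, a receptor gene of the tumour necrosis factor family, had 0.35 ± 0.154 (adjusted p = 0.613), and a region 2863 bp from CSF1, which encodes the macrophage growth factor, 0.27 ± 0.130 (adjusted p = 0.691). The Lgk974 lists joined at most 2059 bp in PWWP2B, 2407 bp at SEMA4C, 2027 bp at TNFRSF14 and 2071 bp near CSF1, against 1860, 905, 1862 and 1157 bp in the DMSO lists. These 4 and TMEM120B passed the width threshold through the Lgk974 lists only, in which they are higher, so here too the difference and the choice of the region are not independent.

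**Figure D5:**
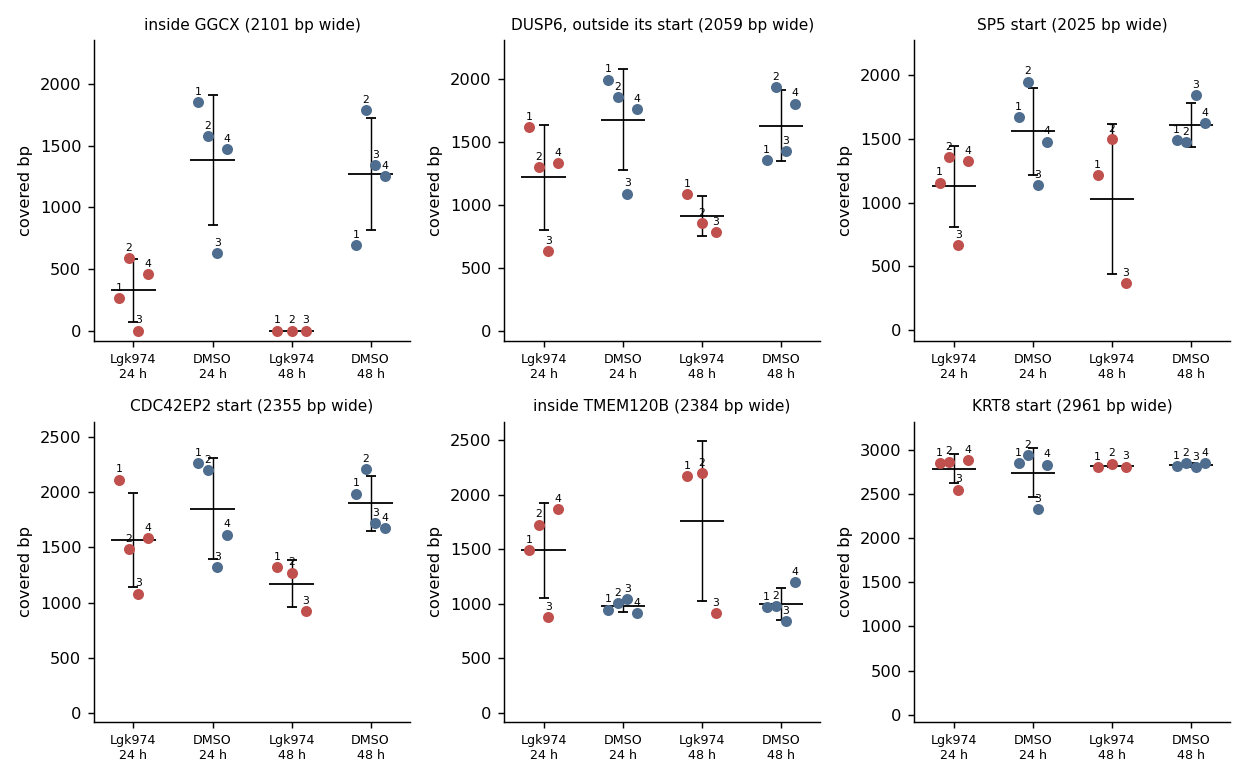
Covered bp per library (points, numbered by replicate) in 6 broad regions, with Lgk974 in red, DMSO in blue, group mean (line) and SD (bars). In GGCX all Lgk974 points lie at or below 586 bp and all DMSO points at or above 626 bp; in KRT8 all 15 lie between 2326 and 2939 bp.

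The number of peaks per region gave 1 call among broad regions at 48 h, lower with Lgk974, against 0.0570% of all regions lower and 0.0587% higher, and 0 over both times, against 0.206% lower and 0.143% higher. At an unadjusted limma p under 0.05 over both times, 56 broad regions were lower in number (5.49%) and 15 higher (1.47%), against 3.1% and 2.52% of all regions. The called region was the start of CNKSR3, a scaffold gene of the RAS pathway (chr6:154509509-154511715). It held 2, 3, 2 and 2 peaks with Lgk974 at 24 h, against 2, 2, 2 and 2 with DMSO. After 48 h it held 1, 1 and 1 with Lgk974, against 2, 2, 2 and 2 with DMSO. Both groups had the same number in every library at 48 h, so limma rests on the spread at other regions and at 24 h. The log2 difference in number + 1 was -0.58 ± 0.0819 at 48 h (SE, limma adjusted p = 0.0145) and -0.24 ± 0.0558 over both times (adjusted p = 0.166). The covered length of this region differed by less (log2 difference at 48 h -0.40 ± 0.194, adjusted p = 0.917). An exact permutation test on the number of peaks called 0 broad regions, with a smallest adjusted p of 0.791. The smallest p that this test allows, 0.000408, was reached by 19 regions lower and 20 higher, 0 of them broad. These were too few to pass the adjustment over all regions, so this test could not decide either.

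Other starts with small limma p for the number of peaks over both times did not pass. FOXO1 held 3, 2, 2 and 2 peaks with Lgk974 at 24 h, against 4, 3, 4 and 4 with DMSO, and 2, 1 and 1 with Lgk974 at 48 h, against 3, 2, 3 and 2 with DMSO (log2 difference -0.58 ± 0.121, limma adjusted p = 0.0948). CAST, which encodes the calpain inhibitor calpastatin, held 2, 2, 2 and 2 with Lgk974 at 24 h, against 1, 1, 1 and 1 with DMSO, and 2, 1 and 3 with Lgk974 at 48 h, against 2, 1, 1 and 1 with DMSO (log2 difference 0.48 ± 0.135, limma adjusted p = 0.336). FOXO1 was thus in fewer pieces with Lgk974 at 24 h apart from 1 tie at 3 peaks, and CAST in more pieces in every Lgk974 library at 24 h. At FOXO1 the Lgk974 lists joined at most 2934 bp and the DMSO lists at most 1439 bp. FOXO1 passed the width threshold through the Lgk974 lists only, so its number of pieces is not independent of how it was chosen.

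Genes of WNT signalling had few broad regions in number, with shares above that of all genes. Of 31 target genes found in the reference, 3 had a broad region at their start or, where no start is given, at their end (9.68%), against 5.07% by start alone of the 15811 protein-coding genes with a start entry. All 3 log2 differences were below 0, as were 842 of all 1020 broad regions, and none passed the test. Their median of -0.45 is the value of ZNRF3 itself, which turned above 0 without the 3 outlying libraries, against -0.116 for all broad regions. SP5, a transcription factor gene that WNT signals switch on, was covered over 1156, 1355, 668 and 1322 bp with Lgk974 at 24 h, against 1670, 1946, 1138 and 1476 bp with DMSO. At the later time it was covered over 1215, 1496 and 369 bp with Lgk974, against 1485, 1471, 1841 and 1622 bp with DMSO. The groups overlapped at both times. The log2 difference over both times was -0.61 ± 0.223 (SE, limma adjusted p = 0.477). It was -0.34 without Lgk974 48 h replicate 3 (adjusted p = 0.521), and -0.30 once the 3 outlying libraries were dropped (adjusted p = 0.0954). With the 53583 strongest peaks of each list it was -1.52 (limma adjusted p = 0.0309, range over 24 alternatives 0.0309 to 0.703), and the values were then 651, 688, 668 and 715 bp with Lgk974 at 24 h, against 1670, 1946, 1138 and 1476 bp with DMSO. At 48 h they were 0, 698 and 369 bp with Lgk974, against 918, 795, 1841 and 1622 bp with DMSO, and neither time showed an overlap. The Lgk974 lists as deposited joined at most 798 bp at SP5 and the DMSO lists the full 2025 bp. SP5 thus passed the width threshold through the DMSO lists only, in which it is higher. Its differences, also those on the shortened lists, are therefore not independent of how the region was chosen.

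ZNRF3, whose product takes WNT receptors off the cell surface, had 1630, 1330, 380 and 1429 bp with Lgk974 at 24 h, against 1730, 1836, 1555 and 1022 bp with DMSO, and 1901, 1977 and 266 bp with Lgk974 at 48 h, against 1726, 1910, 1162 and 1149 bp with DMSO. Both replicates 3 of Lgk974 were far below the others. The log2 difference was -0.45 ± 0.368 (SE, limma adjusted p = 0.895), and 0.19 once the 3 outlying libraries were dropped. FZD7, a WNT receptor gene, differed by -0.22 ± 0.114 (adjusted p = 0.753). Among 50 genes of WNT ligands, receptors and signal transduction, 4 had a broad region (8.0%): WNT7A, a ligand gene, FZD7 again, DVL3, which relays the receptor signal, and GSK3B, the kinase that marks beta-catenin for destruction. WNT7A had 1009, 1245, 241 and 948 bp with Lgk974 at 24 h, against 811, 645, 872 and 926 bp with DMSO, and 1360, 1886 and 279 bp with Lgk974 at 48 h, against 858, 874, 990 and 708 bp with DMSO. Its log2 difference was 0.02 ± 0.337 (limma adjusted p = 0.997) in all libraries and 0.61 (adjusted p = 0.0209) without the 3 that stood apart.

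Some genes of the pancreatic epithelium had broad regions at their starts or, where no start is given, ends. Of 30 pancreatic and foregut transcription factor genes 4 did (13.3%), against 5.07% of all genes by start alone. They were GATA6, FOXA1, PDX1 and SOX9, all factors that specify or maintain pancreatic epithelium. Their median log2 difference was -0.136, 4 of 4 below 0, close to the median of -0.116 and the 842 of 1020 below 0 among all broad regions, and none passed. The GATA6 start was covered over 1481, 1826, 1087 and 1688 bp with Lgk974 at 24 h, against 1631, 1690, 1363 and 1499 bp with DMSO. At 48 h it was covered over 1936, 1640 and 784 bp with Lgk974, against 1291, 1873, 1406 and 1474 bp with DMSO. Among keratin genes KRT8 and KRT80 did. KRT8 averaged 2785 ± 160 bp with Lgk974 and 2736 ± 278 bp with DMSO at 24 h (SD, n = 4 each), and 2818 ± 20.0 bp (n = 3) and 2828 ± 22.6 bp (n = 4) at 48 h, and overlapped at both times.

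Genes of growth control had shares above the 5.07% of all genes, without a call. The measures differ: the lists count genes without a start entry by an end, and the 5.07% counts starts alone, open or not. Of 38 AP-1 and immediate-early genes 5 had a broad region (13.2%), MAFF, DUSP6, ZFP36L2, GADD45A and GADD45B. Of 34 genes of growth factor signalling 4 did (11.8%), EGFR, ERBB3, SPRY4 and SKIL, and of 25 genes of the G1 phase 3 (12%), CCND3, CDKN2A and CDKN2C. EGFR, the receptor of epidermal growth factor, was covered over 1439, 1121, 577 and 1380 bp with Lgk974 at 24 h, against 1827, 2047, 1383 and 1218 bp with DMSO. After 48 h it was covered over 1469, 1608 and 418 bp with Lgk974, against 1490, 1671, 1224 and 1417 bp with DMSO (log2 difference over both times -0.50 ± 0.243, limma adjusted p = 0.716).

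Ribosomal protein genes (5 of 57, 8.77%), housekeeping genes (3 of 30, 10.0%) and replication-dependent histone genes (5 of 51, 9.80%, in 3 regions) were also above the 5.07% of all genes. Of the 15811 genes behind that share, 11283 had any region at their start. By start or end, all 57 ribosomal protein genes, all 30 housekeeping genes and 39 of the 51 histone genes did. The lists and that share are thus not counted alike. The region shared by H1-5 and H2AC16 had a log2 difference of -0.72 ± 0.264 (SE, limma adjusted p = 0.497), and its groups did not overlap at 48 h. A list of long noncoding and small RNA genes had 3 of 35 (8.57%). Interferon-stimulated genes (2 of 50, 4.00%, the shared start of PSMB9 and TAP1), genes that silence endogenous retroviruses (1 of 25, 4.00%, CBX5) and HOX genes (1 of 39, 2.56%, HOXB9) were below the 5.07%. No broad region lay at the starts or ends of 25 immune cell, 25 mesenchymal, 21 neuronal, 26 gastric and intestinal or 20 hepatocyte genes (0 in each list).

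Regions away from gene starts were like those on them in size. The 170 broad regions that were at no start or end of the kinds above had a median width of 2196.5 bp, against 2189 bp for the 850 that were. They were called in all 15 libraries in 91.2%, against 95.2%, and their median log2 difference over both times was -0.0852, against -0.118. The only region that passed the test, in GGCX, belonged to the 170.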

How the data were processed

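ATAC-seq peak lists of 15 HPAF-II libraries were used, 1 list per library, and no list pools libraries. The tools named per the submitters' processing notes are Trimmomatic, Bowtie2, Picard, SAMtools, MACS2, bedtools, HOMER, ChIPseeker, DiffBind and DESeq2, on hg38 (GRCh38), with no order, setting or version. Each deposited list gives a position, an integer score, a fold over background as a ratio, a −log10 p and a −log10 q for each peak, all set by the authors' peak caller. Of these, position was used throughout and the −log10 p and q only to rank or filter peaks within a list. Read depth per library is unknown, so only the number of peaks and the covered length can be compared, and both follow how much was called in a list.

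Of 1413185 deposited peaks, 1138 on other contigs were left out, and 1 line was read after stray characters before its chromosome name were removed. The rest were merged at an overlap of 1 bp or more and regions of at least 2000 bp were kept. Covered bp and the number of peaks were counted per library and region. Group totals were compared by two-sided exact permutation tests, with Benjamini-Hochberg adjustment over 54 comparisons. Single regions were compared with limma 3.58.1 (R 4.3.3, trended and robust prior) on log2(covered bp + 100) and log2(number of peaks + 1), in 115844 regions with a peak in at least 3 libraries, with all 4 groups in 1 fit and Benjamini-Hochberg adjustment at 0.05. Counting and plotting used Python 3.11.15 with scipy 1.17.1, pandas 2.3.3, matplotlib 3.10.9 and numpy 2.4.6. Both tests were tested on simulated data.

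Genes came from RefSeq tables of GRCh38.p14, in which 15811 of 19970 protein-coding genes (79.2%) have a start entry; other genes were counted by an end within 1 kb. Regions and lists were chosen with earlier results of these data known. Regions were named by a fixed order: the 10 widest, the 3 on each side of the threshold, the 5 with the smallest limma p in each direction for covered length and the 3 for peak number, up to 5 per gene list, those called in the fewest libraries, and named pathway and marker genes; a selection is printed. Alternatives used other widths, a −log10 q of at least 5, other pseudocounts and library minimums, the same number of strongest peaks from each list, total covered length as a covariate, bases shared by at least 2 libraries, the replicate number as a block, an exact test per region, and each library left out in turn. Replicates are separate samples in the labels, and whether they are separate cultures is not stated.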

Additional observations from a re-analysis of the deposited data

Results flagged for a closer look

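In the 60 groups of 4 libraries examined, 7 values lay far from the other libraries of their group, and chance alone flags about 1 in 20 groups. Of the 7 values, 4 belonged to Lgk974 24 h replicate 3, which has the shortest list. Its covered length in broad regions was 1102 kb, against 1732 to 1807 kb in the other 3 libraries of the group. Its share of all covered sequence was 4.32%, the highest of its group, and its share of all peaks was 3.08%, also the highest. In DMSO at 24 h the highest share of all peaks, 2.32%, belonged to replicate 4, which has the shortest list of that group. In DMSO at 48 h the lowest number of peaks in broad regions, 1719, belonged to replicate 2.

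Single regions gave 2 more. Downstream of ID1 the lowest DMSO library at 24 h, replicate 3, had 1329 bp, against 1933 to 2006 bp in the other 3. Near CSF1 the lowest Lgk974 library at 24 h, replicate 3, had 1259 bp, against 1793 to 1812 bp in the other 3.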

How the results depend on the processing

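Across the results on group totals, counts of calls and classes, 348 of 454 alternatives were rated the same, and 318 of 335 were for single regions. For group totals and single regions this means the same direction and side of the threshold. For counts of calls it means an equal or similar number, and for the share at genes a value within its 95% interval. Leaving out the 3 libraries that stood apart turned the signs of the differences over both times, to 70.3 kb in covered length, -0.254 points in its share, -0.232 points in the share of peaks, 60.8 bp in peak width and 23.8 in single peaks of at least 2000 bp; it gave 165 kb at 48 h, 189 kb for treatment by time, 83.5 kb for 48 h against 24 h within Lgk974, and 58 peaks at 24 h. The same on lists of equal length gave 50.4 kb, -0.0216 points, -0.0837 points, 88.4 bp, 23.6, 127 kb, 153 kb, 71.0 kb and 14.3 peaks, in that order. Equal lists with all libraries gave -0.0521 points of covered share, 21.5 peaks over both times, 17.8 at 24 h and 25.2 at 48 h, and 0.0264 peaks per region. With regions of at least 3000 bp the width difference was 18.6 bp, and with a −log10 q of at least 5 the peak difference at 48 h was -85.7 (exact permutation p = 0.0286). The cause was not tested.

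Leaving out 1 library at a time, the covered length difference ran from -179 to 34.7 kb over both times, -190 to 70.3 kb at 24 h, -263 to 165 kb at 48 h, -183 to 260 kb for treatment by time, -194 to 249 kb for time within Lgk974 and -105 to 63.0 kb for time within DMSO. Its share ran from -0.0570 to 0.202 points, the share of peaks from -0.0467 to 0.330 points, the number of peaks from -109 to -42.3 over both times and -110 to 22.7 at 24 h, peak width from -52.5 to 69.4 bp and single wide peaks from -23.9 to 26.6. Broad regions called for covered length numbered 0 to 1 at 48 h, and for peak number 0 to 5 over both times, 0 to 1 at 24 h and 0 to 4 at 48 h. Regions with the same peak number in all libraries of each group have no spread of their own, so limma calls on peak number are weakly grounded.

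Broad regions called for covered length over both times numbered 5 with equal lists (0 higher, 5 lower), 5 with total covered length as a covariate (3 higher, 2 lower), 12 without the 3 libraries (9 higher, 3 lower), 0 with bases in at least 2 libraries and 0 with the exact test. The exact test could not decide here, because its smallest possible p of 0.000408 did not pass the adjustment over all regions. At 24 h they numbered 1 with equal lists and 2 without the 3 libraries. At 48 h they numbered 0 with a minimum of 6 libraries, 2 with equal lists, 3 with the covariate, 0 with bases in at least 2 libraries and 2 without the 3 libraries. For the alternatives in this section the share of all regions called is not given, so the counts show nothing particular to broad regions. ZNRF3 reversed to 0.68 on equal lists, 0.81 on equal lists with the replicate block and 0.19 without the 3 libraries. The share at gene starts or ends was 83.2% at 3 kb.

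With the replicate block, the number called for covered length was 2 over both times (GGCX and CDC42EP2) and 0 at 48 h, and for peak number 0 at 48 h, so the 48 h calls of GGCX and CNKSR3 were lost; on equal lists with the block it was 7 over both times and 3 at 48 h, and 4 for peak number over both times, and SP5 was not among them (adjusted p = 0.0525). Libraries with the same number correlated at 0.142, 0.189, 0.117 and 0.0684 at 24 h and at 0.172, 0.0640 and 0.162 at 48 h, not all over 0.1, so the numbers were not taken as pairs. Lgk974 24 h replicate 4 correlated more with DMSO replicate 3 (0.152) than with its own number. At 24 h replicates 1 and 2 correlated positively across treatments, as did 3 and 4 (0.0684 to 0.189), and the other pairs negatively (-0.158 to -0.0634); at 48 h Lgk974 replicates 1 and 3 followed this split and replicate 2 did not. No fit used this split.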

Other observations

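Without the 3 libraries that stood apart, a set chosen after the data were seen, limma called 9 broad regions higher with Lgk974 over both times and 3 lower. The higher ones were the starts of SMC4, a condensin subunit gene (log2 difference 0.35, adjusted p = 0.00413), CEMIP (0.21, adjusted p = 0.0321), KLK11, a kallikrein protease gene (0.50, adjusted p = 0.0228), MINDY4 (0.65, adjusted p = 0.0330), MFSD11 (0.31, adjusted p = 0.0465), WNT7A (0.61, adjusted p = 0.0209) and CBX5, the gene of heterochromatin protein HP1 alpha (0.17, adjusted p = 0.0496), with the regions in TMEM120B and near CSF1. The lower ones were those of GGCX, DUSP6 and ID1. With all 15 libraries GGCX alone passed. The share of all regions called without the 3 libraries is not given here, so these counts show nothing particular to broad regions.

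With the 53583 strongest peaks of each list, limma called 5 broad regions lower with Lgk974, at SP5, CDC42EP2, PRPF6, a splicing factor gene (log2 difference -0.86, adjusted p = 0.00648), PLXNB2, a semaphorin receptor gene (-0.75, adjusted p = 0.00723), and TCHH (-2.86, adjusted p = 0.00895). In TCHH the shortened lists held 0 bp in each of the 7 Lgk974 libraries, against 1588, 1287, 2006 and 1255 bp with DMSO at 24 h and 793, 0, 0 and 1215 bp with DMSO at 48 h. As deposited they held 1573, 1197, 0 and 699 bp with Lgk974 at 24 h, against 1588, 1487, 2006 and 1255 bp with DMSO, and 1341, 1474 and 0 bp with Lgk974 at 48 h, against 1148, 1536, 851 and 1215 bp with DMSO. The groups overlapped there at both times, and the zeros in 5 of the 7 Lgk974 libraries come from shortening the lists. Those 5 did not pass with the lists as deposited. The share of all regions called on the shortened lists is not given here either.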
